A study of Saccharomyces cerevisiae with 6 samples.

Results

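The mRNAs described here encode 42 proteins of the early secretory pathway of baker's yeast, Saccharomyces cerevisiae, out of 5667 yeast loci on the arrays. They were chosen by name, not by a cutoff on a measured value, though earlier results of these data were known. They cover the signal recognition particle (SRP) and its receptor, the translocon and the PMT mannosyltransferases. The oligosaccharyltransferase, the COPII coat (grouped with SEC12 and SEC16) and cargo receptors of COPII vesicles are also covered. All 42 were measured, each by 1 gene probe set that matches no other transcript, and all 42 lay above the background floor on all 6 arrays. RNA was taken from UV-crosslinked cells by precipitating the mRNA export receptor Mex67 (strain HKY1266) or the SR-like mRNA-binding protein Npl3 (strain HKY157). A mock precipitation without a tagged protein served as the control (label HKY36/HKY381, which names a pair of strains). Every strain grew in rich medium at 25 °C and was then held for 30 min at 25 °C or at 42 °C. Lysates went onto beads with a c-myc antibody and onto GFP-Trap beads, and the labels do not say which tag each protein carried.

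Each of the 6 groups is 1 array, so there is no replicate, no error and no p-value for any difference given here. The deposited values are on a log2 scale and the arrays had been normalized to each other, so each difference stands relative to the rest of the mRNAs. A gene was counted as different when 2 arrays differed at least 2-fold, that is by 1 on the log2 scale, and it lay above the floor on at least 1 of them. The floor was the 95th percentile of 4999 fission yeast probe sets on each array, between 4.997 and 5.117. Between 0 and 3 of those 4999 dim probe sets differed at least 2-fold in any comparison of 2 arrays, which shows background noise and not the spread between precipitations. Mex67, Npl3 and the control come from different strains, so binding and strain cannot be told apart. Fewer copies in the cell and less RNA in the precipitate cannot be told apart either. The columns were assigned to temperatures by reading S as stressed and US as unstressed, and in all 3 strains 8 of 8 heat shock chaperone mRNAs had their higher value in the column marked S.

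The arrays fell on 2 sides in the labelling spikes. The median of the 12 labelling spikes, RNAs added before labelling, was 6.80 and 6.63 in the 25 °C and 42 °C controls and 6.51 with Mex67 at 25 °C. It was 4.63 with Mex67 at 42 °C and 5.06 and 5.17 with Npl3 at 25 °C and 42 °C. Comparisons that cross these sides are Npl3 over the control, Mex67 over the control at 42 °C, Mex67 over Npl3 at 25 °C and heat with Mex67, also over the control's heat. Of the control genes with probe sets at both ends, the 3' minus 5' difference was higher on the second side for WBP1 (given with that gene), SRB4 and ACT1, where it was 0.53, 0.56 and 0.55 against 0.80 with heated Mex67 and 1.35 and 1.10 with Npl3. For SPT15 it did not split, at 1.07, 1.01 and 0.89 against 1.09, 1.05 and 1.02. It is called the labelling split below after the spikes alone, and what set the 2 sides apart was not tested. The part of this split in the results below was not tested either, and comparisons that do not cross it are named where they bear on a result.

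The endoplasmic reticulum (ER) is the entry point for proteins that are secreted or built into membranes. Ribosomes whose nascent chain carries a signal sequence are brought to the ER by SRP and its receptor, and the chain passes through the Sec61 channel as it is made. Other chains reach the channel after translation with the help of Sec62, Sec63, Sec66 and Sec72. Inside the ER, the oligosaccharyltransferase adds glycans to asparagine and PMT enzymes add mannose to serine and threonine. Folded cargo leaves in vesicles coated with COPII proteins. Of the 42 members, 29 encode proteins with a membrane segment or a signal sequence, whose own mRNAs are translated at the ER or whose products insert into its membrane. The other 13 encode proteins without one: the SRP subunits, the alpha subunit of the SRP receptor, Sec72 and the COPII coat group apart from Sec12.

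Npl3 over the control split the pathway by gene. At 25 °C, 15 of the 42 members were at least 2-fold lower and 5 at least 2-fold higher, that is 35.7% and 11.9% of them against 15.1% and 18.1% of all genes tested. At 42 °C, 11 were lower and 5 higher, 26.2% and 11.9% against 19.4% and 18.7%. The 11 lower at 42 °C were all among the 15 lower at 25 °C (100% and 73.3% of the lists), and the 5 higher were the same at both temperatures. The members' median was -0.41 at 25 °C and -0.36 at 42 °C, beside -0.08 and -0.14 over all loci. The 11 low mRNAs were those of PMT1 to PMT6, STT3, SEC63, SRP54, SEC13 and SEC24, and the 5 high ones were OST4, OST5, SSS1, SBH1 and SRP21. Length goes with this contrast over the whole array, as described below. Without the length trend 8 of the 15 and 0 of the 5 stayed 2-fold different at 25 °C, and 5 of the 11 and 4 of the 5 at 42 °C. EMP24, ERP2 and ERV25 were then also at least 2-fold lower at both temperatures. SEC16 was at least 2-fold higher at 25 °C and SEC31 at 42 °C. That made 11 lower and 1 higher at 25 °C, and 8 and 5 at 42 °C. Shares of all genes were not computed on this scale.

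**Figure D1:**
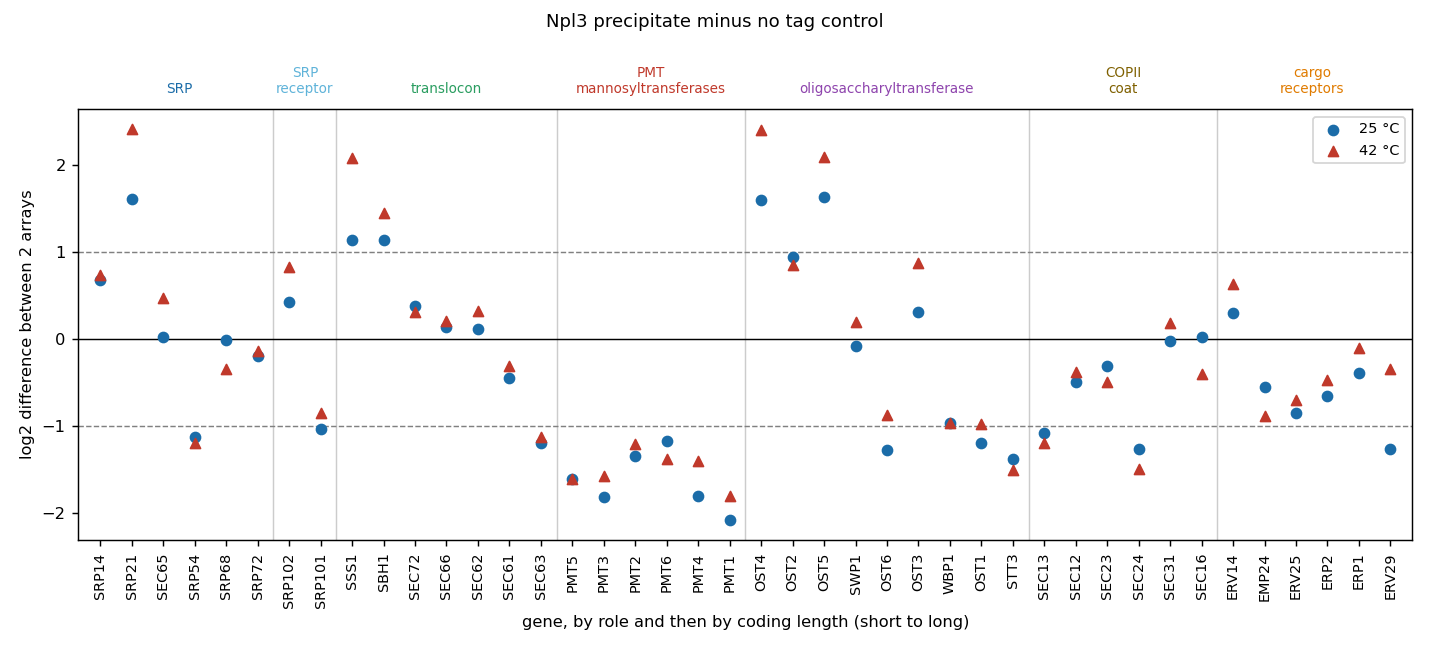
Log2 difference between the Npl3 precipitate and the no tag control at 25 °C (circles) and 42 °C (triangles) for each of the 42 genes, grouped by role and ordered by coding length within a role. Each point is a difference of 2 arrays without replicates, and dashed lines mark 2-fold. All 6 PMT genes lie below the lower line at both temperatures, and OST4, OST5, SSS1, SBH1 and SRP21 lie above the upper line at both.

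The PMT genes encode the protein O-mannosyltransferases, multi-pass enzymes of the ER membrane. PMT1, whose product pairs with that of PMT2, had log2 values of 13.42 and 13.48 in the 25 °C and 42 °C controls, 12.97 and 13.02 with Mex67 and 11.34 and 11.69 with Npl3. PMT2 was at 13.83 and 13.97 in the controls, 13.68 and 14.23 with Mex67 and 12.50 and 12.77 with Npl3. For both genes the Npl3 pair lay below the other 4 arrays, and no heat difference of either gene exceeded 0.54 within a precipitate. PMT3 was at 12.00 and 11.84 in the controls, 11.24 and 11.71 with Mex67 and 10.18 and 10.27 with Npl3. PMT5 was at 10.98 and 11.17, 10.36 and 11.17, and 9.38 and 9.57 in the same order, and PMT6 at 11.36 and 10.93, 10.72 and 10.57, and 10.19 and 9.55. All 6 genes were at least 2-fold lower with Npl3 than in the control at both temperatures, with medians of -1.70 (from -2.08 for PMT1 to -1.17 for PMT6) and -1.49 (from -1.80 to -1.20). Mex67 over the control gave PMT medians of -0.53 at 25 °C and -0.25 at 42 °C, with all 6 below 0 at 25 °C.

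PMT4, the member that acts as a homodimer, differed from the other PMT genes with heat in the Mex67 precipitate. Its values were 13.27 and 12.58 in the 25 °C and 42 °C controls, 13.001 and 11.45 with Mex67 and 11.47 and 11.18 with Npl3. The heated Mex67 array thus lay close to the Npl3 arrays for this gene, which is not so for PMT1, PMT2, PMT3 or PMT5. Heat with Mex67 was at -1.55 for PMT4, against 0.81 for PMT5, 0.54 for PMT2, 0.48 for PMT3, 0.04 for PMT1 and -0.15 for PMT6. Heat in the control was at -0.69 for PMT4 and between -0.43 and 0.20 for the other 5.

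Mex67 over Npl3 at 42 °C does not cross the labelling split, though its 2 arrays were not alike. The spikes were at 4.63 with Mex67 and 5.17 with Npl3, and the ACT1 3' minus 5' difference at 0.80 and 1.10. All 6 PMT mRNAs were higher with Mex67 in this comparison, 5 of them at least 2-fold, with a median of 1.39 and a lowest value of 0.27 for PMT4. Without the trend with coding length the median was 0.73, none of the 6 reached 2-fold (the highest was PMT5 at 0.98) and PMT4 was at -0.37. At 25 °C, where the arrays differ in the split, 4 of 6 were at least 2-fold higher and the median was 1.12. Without the length trend 2 of 6 were, PMT1 and PMT4, and the median was 0.82. The PMT genes are of similar coding length, 2232 to 2454 bp, and length went with the Npl3 differences over the whole array. Loci of over 2000 and up to 2500 bp had medians of -0.46 and -0.56 in Npl3 over the control at 25 °C and 42 °C over 501 loci. After the trend with coding length was removed, the PMT medians in Npl3 over the control were -1.36 and -0.997. PMT1, PMT3, PMT4 and PMT5 then remained at least 2-fold lower at 25 °C, and PMT1, PMT3 and PMT5 at 42 °C. The calls lost were PMT2 at -0.99 and PMT6 at -0.83 at 25 °C, and PMT2 at -0.71, PMT4 at -0.91 and PMT6 at -0.89 at 42 °C.

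**Figure D2:**
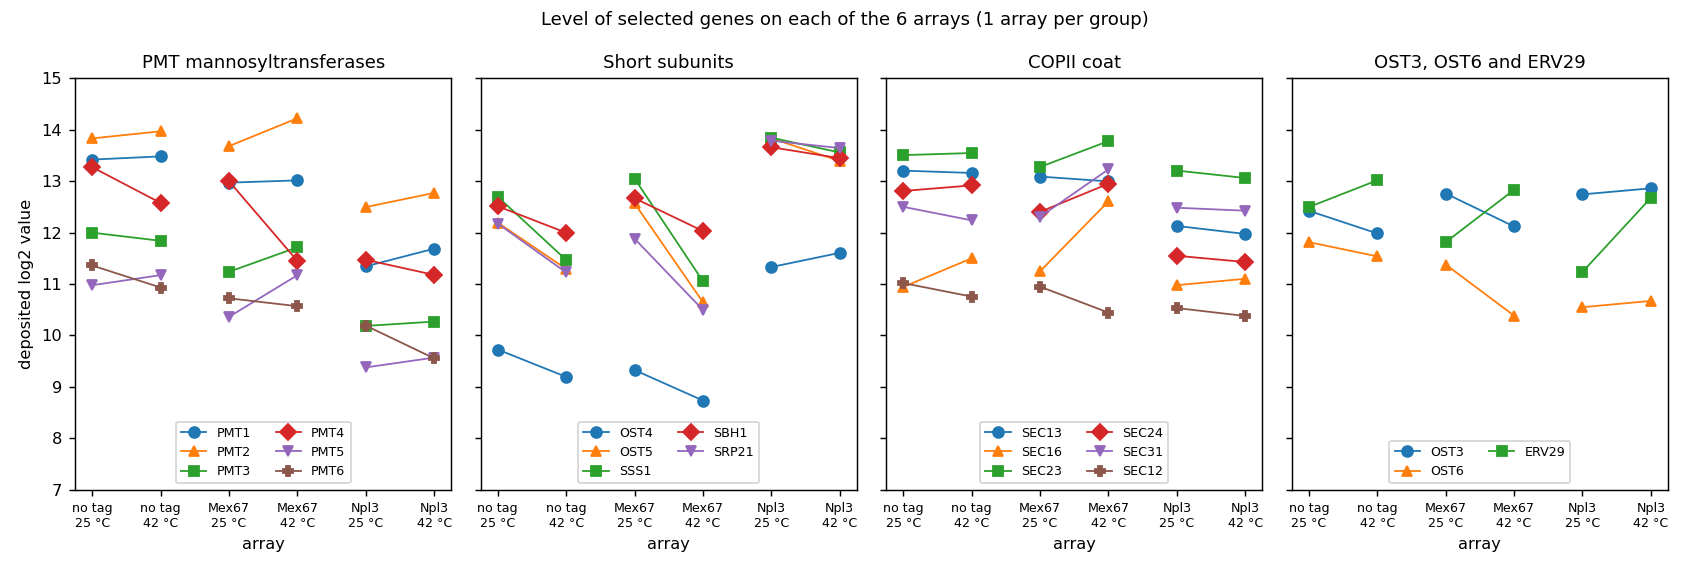
Deposited log2 value on each of the 6 arrays for the PMT genes, 5 short subunits, the genes grouped under the COPII coat and OST3, OST6 and ERV29. Lines join 25 °C and 42 °C of the same precipitate, and heights of different genes are not comparable. PMT lines sit lowest with Npl3, except that PMT4 is as low on the heated Mex67 array, and the short subunits sit highest with Npl3, while PMT4, SSS1, OST5 and SRP21 slope down and SEC16 and SEC31 slope up with heat in the Mex67 precipitate.

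The 5 mRNAs that were high with Npl3 code for small subunits and were among the 8 shortest of the 42 genes. Short loci were often high over the whole array. Of 695 loci of up to 500 bp, 45.6% were at least 2-fold higher at 25 °C and 47.2% at 42 °C. For the 7 members of that length, which leave out SRP21 at 504 bp, the share was 57.1% at both temperatures. OST4, a mini-subunit of the oligosaccharyltransferase with a coding length of 111 bp, was at 9.73 and 9.19 in the 25 °C and 42 °C controls, 9.33 and 8.73 with Mex67 and 11.33 and 11.61 with Npl3. SSS1, the gamma subunit of the channel (243 bp), was at 12.70 and 11.47, 13.05 and 11.06, and 13.85 and 13.56 in the same order. In both, each Npl3 array lay above all 4 others. SBH1, the beta subunit of the channel (249 bp), was at 12.51 and 12.00, 12.67 and 12.03, and 13.66 and 13.45. OST5 was at 12.19 and 11.29, 12.57 and 10.65, and 13.84 and 13.39. SRP21, a subunit of the yeast SRP that encodes no membrane protein, was at 12.18 and 11.22, 11.88 and 10.50, and 13.79 and 13.64. Npl3 over the control was at 1.61 and 2.41 for OST4, 1.15 and 2.09 for SSS1, 1.15 and 1.45 for SBH1, 1.64 and 2.10 for OST5 and 1.61 and 2.42 for SRP21 at 25 °C and 42 °C. Without the length trend none of the 5 reached 2-fold at 25 °C, with SRP21 at 0.92, OST5 at 0.80, OST4 at 0.72, SSS1 at 0.23 and SBH1 at 0.22. At 42 °C OST4 at 1.83, SRP21 at 1.61, SSS1 at 1.18 and OST5 at 1.14 did, and SBH1 at 0.53 did not. The member at least 2-fold higher at 25 °C on this scale was SEC16, at 1.14. OST4 and SEC16 lie at the ends of the length range, where a bend of the trend was not checked.

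The larger value at 42 °C came with lower levels in the heated control for all 5 genes. OST4 alone among them was higher with heat in the Npl3 precipitate, by 0.28. Heat over the control's heat was at 0.94 for SSS1, 0.81 for OST4, 0.81 for SRP21, 0.46 for OST5 and 0.30 for SBH1 with Npl3, and 0 of the 42 members reached 2-fold in either direction there (1.13% of all genes tested were higher and 4.30% lower). The short genes differed from each other too. SRP14, OST2 and ERV14, of 393 to 441 bp, were at 0.69, 0.94 and 0.30 at 25 °C and at 0.74, 0.86 and 0.63 at 42 °C, so none of these 3 reached 2-fold.

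Among all 42 members, Npl3 over the control went with coding length more closely than over all loci. The rank correlation was -0.70 at 25 °C and -0.75 at 42 °C across the 42 genes, and -0.43 and -0.47 across 5646 loci with a length. Genes share an array and are not independent, so this is a description. In Mex67 over Npl3 at 42 °C, which does not cross the labelling split, it was 0.85 across the members and 0.50 across all loci. All 7 members of up to 500 bp were above 0 with Npl3 at both temperatures, with medians of 1.15 and 1.45, against 0.90 and 0.93 over 695 loci of that length. All 8 members of over 2000 and up to 2500 bp (the 6 PMT genes, STT3 and SEC23) were below 0 at both temperatures.

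**Figure D3:**
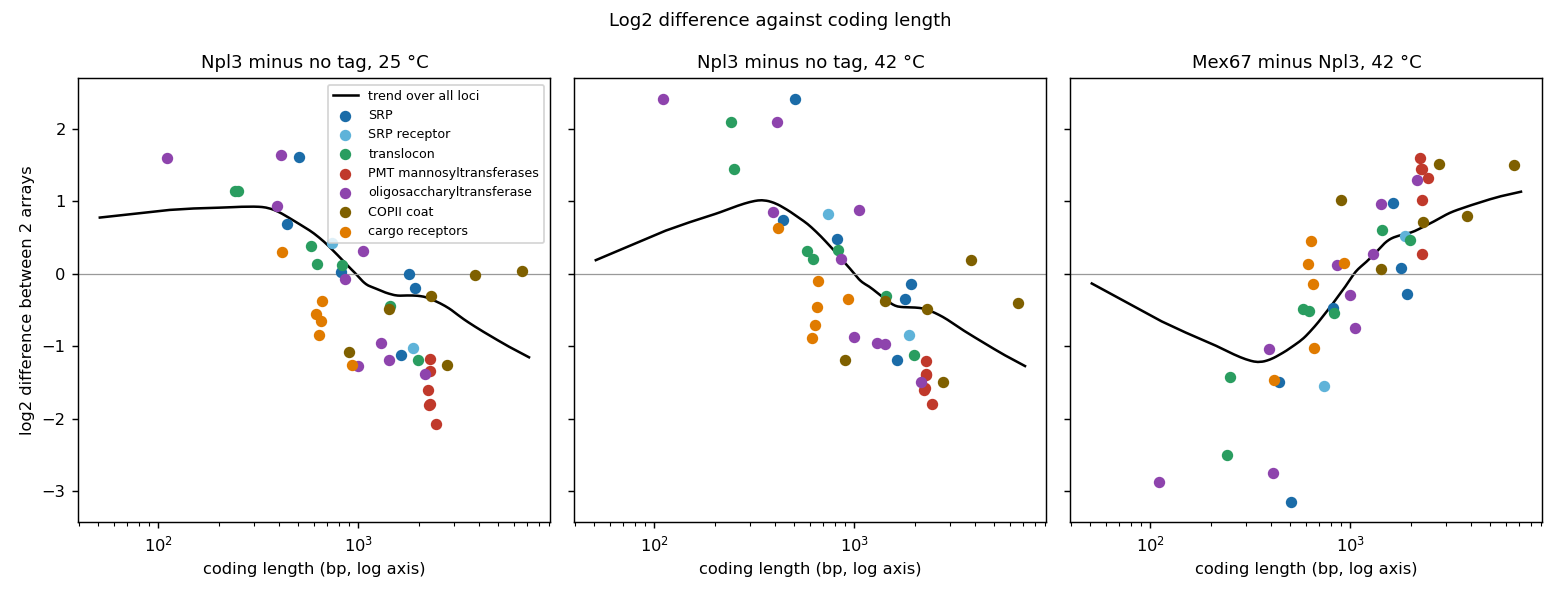
Log2 difference against coding length (log axis) for Npl3 minus the control at 25 °C and 42 °C and for Mex67 minus Npl3 at 42 °C, with members coloured by role and the lowess trend over all loci as a line. In the left and middle panels the short members lie high and the PMT genes low, while SEC16 and SEC31, the longest members, lie above the line. The right panel runs the other way.

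Length did not order every pair. SEC16, the scaffold of ER exit sites and the longest member at 6588 bp, was at 0.03 and -0.40 in Npl3 over the control at 25 °C and 42 °C. The trend over all loci at that length was -1.10 and -1.22, at an end of the curve where a bend was not checked. SEC31, a subunit of the outer COPII cage of 3822 bp, was at -0.02 and 0.19, where the trend was -0.73 and -0.84. At the other end, the p24 cargo receptors EMP24, ERV25, ERP1 and ERP2 have coding lengths of 612 to 660 bp and lay between -0.85 and -0.38 at 25 °C and between -0.88 and -0.10 at 42 °C, where the trend at 612 bp was 0.54 and 0.64. SEC13, an outer coat subunit that also belongs to the nuclear pore, was at -1.08 and -1.19 with a trend of 0.10 and 0.16 at its 894 bp.

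Neighbouring genes could differ as well. PMT1, PMT5 and SRP14 lie close together on the same chromosome, per the RefSeq table of assembly R64. In Npl3 over the control they were at -2.08, -1.60 and 0.69 at 25 °C and at -1.80, -1.60 and 0.74 at 42 °C.

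The members were also divided by the kind of protein. Those 29 with a membrane segment or signal sequence had medians of -0.55 and -0.38 in Npl3 over the control at 25 °C and 42 °C, and the 13 without had -0.02 and -0.34. After the length trend was removed, the medians were -0.83 and -0.62 for the 29 and -0.10 and 0.01 for the 13. The ranges overlapped widely, from -2.08 to 1.64 for the 29 and from -1.26 to 1.61 for the 13 at 25 °C before the trend was removed. Among all other loci, 630 had a description in the deposited table that names a compartment of the secretory route or holds the word permease, GPI or mannosyl. Those of over 2000 and up to 2500 bp had a median of -0.64 over 56 loci at 25 °C, with 30.4% at least 2-fold lower, and the remaining loci of that length had -0.38 over 437, with 16.0% lower. Without the length trend, the medians at 25 °C and 42 °C were -0.30 and -0.26 over all 630, and 0.009 and 0.003 over the 4995 remaining loci.

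Lists of amino acid permeases and of cytosolic tRNA synthetases were set beside the members. The 19 permeases, multi-pass proteins that use this pathway, had medians of -0.76 and -1.37 in Npl3 over the control at 25 °C and 42 °C, and 8 and 13 were at least 2-fold lower, 42.1% and 68.4% of the list beside 15.1% and 19.4% of all genes tested. The 18 synthetases, soluble enzymes of the cytosol, had -0.91 and -1.13, also with 8 and 13 at least 2-fold lower, 44.4% and 72.2% of the list. Median coding lengths were 1809 and 1896 bp. Without the length trend the medians were -0.46 and -0.91 for the permeases and -0.57 and -0.58 for the synthetases. Low values with Npl3 were therefore also found for mRNAs of soluble proteins. The lists differed in heat in the control, with medians of 0.56 for the permeases, -0.27 for the synthetases and -0.26 for the members.

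Among SRP and receptor genes, Npl3 over the control ran from -1.12 and -1.19 for SRP54 to 1.61 and 2.42 for SRP21. SRP54, the GTPase that binds signal sequences, was at 13.25 in both controls, 13.37 and 13.05 with Mex67 at 25 °C and 42 °C and 12.13 and 12.07 with Npl3. The receptor's alpha subunit, a GTPase (locus YDR292C), was at 12.31 and 11.93, 12.37 and 11.60, and 11.28 and 11.08 in the same order. For both genes, the Npl3 arrays were the lowest of the 6. The membrane-bound beta subunit of the receptor (locus YKL154W) was instead at 11.43 and 10.97, 11.07 and 10.26, and 11.86 and 11.81, with Npl3 highest. SRP68 and SRP72, which bind each other, lay between -0.34 and -0.01 in Npl3 over the control at both temperatures, and SEC65, the counterpart of mammalian SRP19, was at 0.03 and 0.48.

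In the translocon, SEC61, which encodes the channel itself, was at 14.12 and 14.01 in the 25 °C and 42 °C controls, 14.03 and 14.31 with Mex67 and 13.68 and 13.71 with Npl3. SEC63, a J-domain protein that recruits the ER chaperone Kar2 to the channel, was at 13.01 and 12.88, 12.56 and 12.23, and 11.82 and 11.76. Its Npl3 difference of -1.19 and -1.12 set it apart from SEC62, SEC66 and SEC72, its partners in the complex for translocation after translation, which lay between 0.12 and 0.39 at 25 °C and between 0.21 and 0.33 at 42 °C. SEC63 is the longest of the 4, at 1992 bp, and was at -0.89 and -0.66 without the length trend. SEC62, SEC66 and SEC72 were then between -0.39 and -0.08 at 25 °C and between -0.41 and 0.06 at 42 °C.

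The oligosaccharyltransferase ran from STT3, its catalytic subunit, to OST4 and OST5. STT3 was at 13.61 and 13.48 in the 25 °C and 42 °C controls, 13.44 and 13.28 with Mex67 and 12.23 and 11.99 with Npl3, that is -1.38 and -1.50 over the control. OST1 was at -1.18 and -0.97 and SWP1 at -0.07 and 0.20. OST3 and OST6 encode alternative subunits that take the same place in the complex and are of similar coding length, 1053 and 999 bp. OST3 was at 12.42 and 11.98 in the controls, 12.76 and 12.12 with Mex67 and 12.74 and 12.86 with Npl3. OST6 was at 11.82 and 11.54, 11.38 and 10.39, and 10.55 and 10.67. Npl3 over the control was thus at 0.32 and 0.88 for OST3 and at -1.27 and -0.87 for OST6, in opposite directions at both temperatures.

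WBP1, another subunit of this enzyme, is also a control gene of the array, with probe sets for its 5' end, its middle and its 3' end beside the gene probe set. The gene probe set read 13.49 and 13.10 in the 25 °C and 42 °C controls, 13.14 and 12.42 with Mex67 and 12.54 and 12.14 with Npl3. The 3' control read 13.48 and 13.12, 13.10 and 12.37, and 12.57 and 12.16, and the 5' control 11.75 and 11.36, 11.40 and 10.18, and 10.53 and 10.17. Gene and 3' probe sets gave nearly the same differences, and the 5' and middle ones gave larger ones where the labelling split was crossed. Npl3 over the control was at -0.96 and -0.96 on the gene probe set and at -1.21 and -1.19 on the 5' control. Heat with Mex67 was at -0.72 on the gene probe set, -0.73 on the 3' control, -1.06 on the middle one and -1.22 on the 5' one, so that the probe set decided whether 2-fold was reached. Heat in the control, between -0.50 and -0.36, and heat with Npl3, between -0.41 and -0.37, did not cross the split and spanned 0.14 and 0.05 across the 4 probe sets, against 0.49 for heat with Mex67. Mex67 over Npl3 at 42 °C, which does not cross it either, ran from -0.01 to 0.28, a span of 0.29, as wide as the 0.30 and 0.23 of Npl3 over the control at 25 °C and 42 °C. The 3' control exceeded the 5' control by 1.73 and 1.77 in the controls and 1.71 with Mex67 at 25 °C, and by 2.19 with Mex67 at 42 °C and 2.04 and 1.99 with Npl3.

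**Figure D4:**
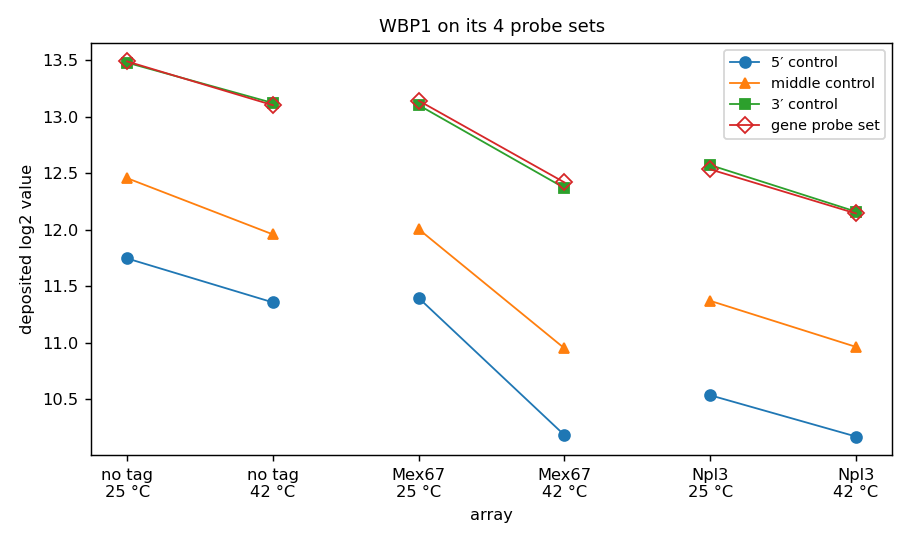
Deposited log2 value of WBP1 on each of the 6 arrays for 4 probe sets, with lines joining 25 °C and 42 °C of the same precipitate. Gene and 3' probe sets overlap, and the 5' and middle probe sets drop more steeply with heat in the Mex67 precipitate than the other 2.

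Mex67 over the control at 25 °C, a pair that does not cross the labelling split, differed little over the whole array and for this pathway. The members ranged from -0.76 (PMT3) to 0.38 (OST5), with a median of -0.11 beside 0.03 over all loci and 27 of 42 below 0. In either direction 0 of 42 reached 2-fold, near the 0.746% higher and 0.657% lower over all genes tested. At 42 °C, 1 member was at least 2-fold higher and 3 lower, 2.38% and 7.14% of the members against 6.97% and 5.79%. The median was then -0.25 beside 0.01 over all loci, and 32 of 42 were below 0. SEC16 was the high one at 1.11, followed by SEC31 at 0.99. OST6 at -1.15, PMT4 at -1.13 and ERP1 at -1.12 were the low ones.

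Mex67 over Npl3 joined both patterns. At 25 °C, 7 of the 42 were at least 2-fold higher with Mex67 and 3 lower, 16.7% and 7.14% of the members against 12.1% and 15.2% of genes tested. At 42 °C, 9 were higher and 10 lower, 21.4% and 23.8% of the members against 22.5% and 20.2%, so that at this temperature the shares were near those of all genes. Those at least 2-fold higher at both temperatures were PMT1, PMT2, PMT3 and STT3, 57.1% of the list at 25 °C and 44.4% of that at 42 °C. SRP21 at -3.15, OST4 at -2.87, OST5 at -2.75 and SSS1 at -2.50 were the lowest at 42 °C. Without the length trend these 4 stayed at least 2-fold lower at 42 °C. Of the 9 higher 1 stayed, SEC13, and ERV25 was then also higher, while PMT1, PMT2, PMT3 and STT3 did not stay. At 25 °C 2 of the 7 higher stayed, PMT1 and PMT4, and 2 of the 3 lower, OST4 and SRP21. ERP2, ERV25 and SEC13 were then also higher at 25 °C.

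Heat in the control precipitate went with slightly lower values for most of the pathway. In all, 33 of 42 members were below 0, with a median of -0.26 beside 0.01 over all loci, and 1 was at least 2-fold lower and 0 higher, against 2.07% and 6.69%. SSS1 was the low one at -1.23. SEC16 at 0.56 and ERV29 at 0.52 were the highest. This pair does not cross the labelling split.

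In the Mex67 precipitate heat went with lower values for most of the pathway. Of 42 members, 8 were at least 2-fold lower and 2 higher, 19.05% and 4.76% against 12.2% and 15.4% of genes tested, with a median of -0.51 beside 0.03 over all loci. SSS1 was at -2.00, OST5 at -1.92, SRP14 at -1.55, PMT4 at -1.55, ERP1 at -1.43, SRP21 at -1.39, ERV14 at -1.22 and ERP2 at -1.18, and the higher ones were SEC16 at 1.36 and ERV29 at 1.02. Without the length trend SRP21, ERV14 and ERP2 no longer reached 2-fold, SRP72 and the alpha subunit of the SRP receptor did, and the other calls stayed. ERP1 and ERP2 are p24 proteins that sort cargo into COPII vesicles, and ERV14 is a cargo receptor related to cornichon of flies. SRP14 was at 11.95 at 25 °C and 10.39 at 42 °C with Mex67, against 11.61 and 11.15 in the controls and 12.30 and 11.89 with Npl3. All 6 SRP mRNAs were below 0, with a median of -0.85. They were also below 0 with heat in the other precipitates, 6 of 6 with Npl3 at a median of -0.33 and 5 of 6 in the control at -0.48. Of 6 cargo receptor mRNAs 5 were below 0, with a median of -0.96, and ERV29 was above. The rank correlation with coding length across the members was 0.64, beside 0.31 across all loci, and these arrays cross the labelling split.

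**Figure D5:**
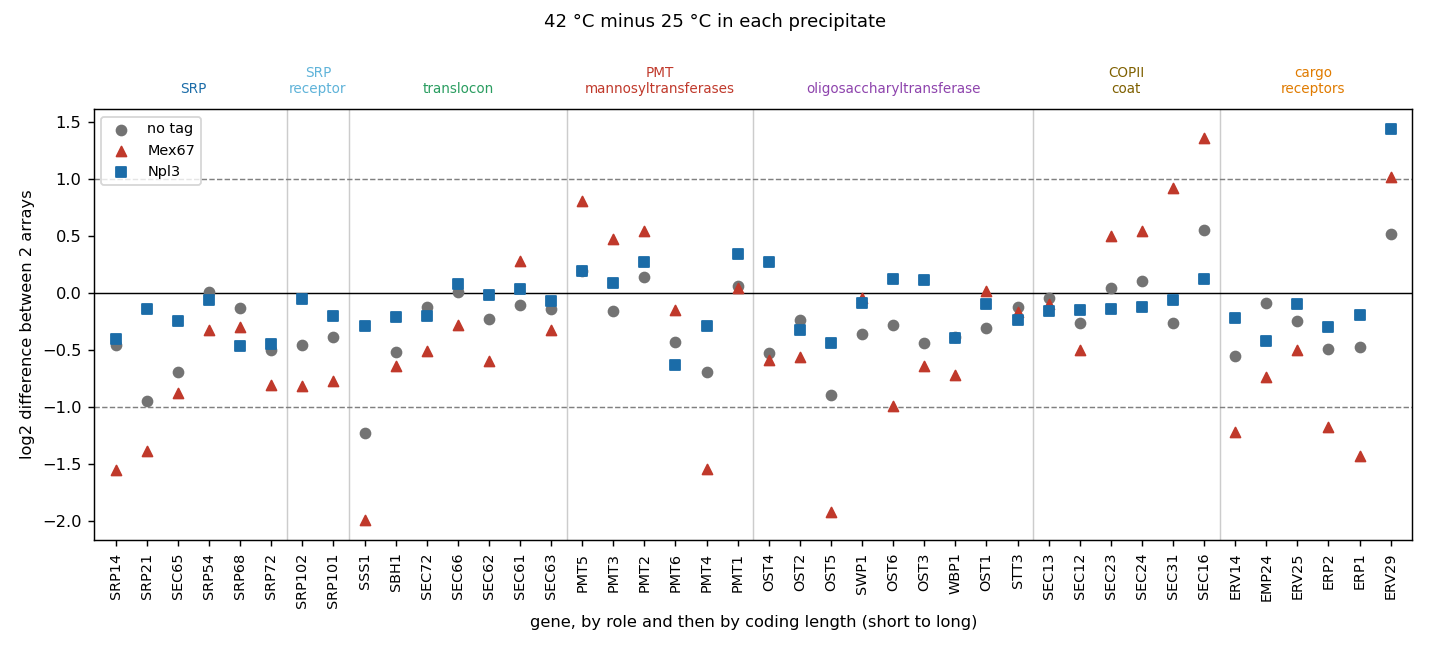
Log2 difference between 42 °C and 25 °C for each of the 42 genes in the control (circles), Mex67 (triangles) and Npl3 (squares) precipitates, grouped by role and ordered by coding length. Dashed lines mark 2-fold, and each point is a difference of 2 arrays. Triangles spread from -2.00 (SSS1) to 1.36 (SEC16), and the squares lie within 2-fold apart from ERV29 at 1.44.

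The 6 genes grouped under the COPII coat include SEC12 and the scaffold gene SEC16, which are not coat subunits. Of the 6, 4 were above 0 with heat in the Mex67 precipitate and 1, SEC16, reached 2-fold. Their median was 0.53, and 0.12 without the length trend. SEC16 was at 11.25 at 25 °C and 12.61 at 42 °C, against 10.94 and 11.50 in the controls and 10.98 and 11.10 with Npl3. SEC31 was at 12.31 and 13.23, against 12.50 and 12.24 in the controls and 12.48 and 12.43 with Npl3. The heated Mex67 array was the highest of the 6 for both genes. SEC23 and SEC24, the cargo-binding inner coat, were higher with heat by 0.50 and 0.55, while SEC13 was at -0.09 and SEC12, the membrane protein that activates the GTPase Sar1, at -0.50. Over the control's heat, SEC31 was at 1.19, and SRP14 at -1.10 and OST5 at -1.02 were lower, 1 and 2 members against 5.06% and 5.40% of genes tested. Without the length trend these 3 were at 0.94, -0.82 and -0.73 and none reached 2-fold, while PMT4 did at -1.08.

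Npl3 arrays differed little with heat. The members' median was -0.14 beside 0.01 over all loci, 31 of 42 were below 0, and 1 was at least 2-fold higher and 0 lower, against 2.11% and 1.38%. That gene was ERV29, which encodes the receptor for soluble cargo such as the pheromone precursor. ERV29 was at 11.23 at 25 °C and 12.68 at 42 °C with Npl3, 11.81 and 12.83 with Mex67, and 12.50 and 13.02 in the controls. Values were thus higher with heat in all 3 precipitates, by 1.44, 1.02 and 0.52, and the arrays differed more at 25 °C than at 42 °C. Neither the Npl3 pair nor the control pair crosses the labelling split.

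Another 72 genes of the secretory pathway were listed by name, among them signal peptidase, ER chaperones, glycan synthesis, COPI and SNARE genes, and all 72 were measured. In Npl3 over the control, 23 were at least 2-fold lower and 7 higher at 25 °C, and 21 and 9 at 42 °C. That is 31.9% lower and 9.72% higher at 25 °C, beside 15.1% and 18.1% of all genes tested, and 29.2% and 12.5% at 42 °C, beside 19.4% and 18.7%. The medians were -0.54 and -0.47. SEC26, a COPI coat subunit, was at -1.86 and EUG1, a disulfide isomerase homologue, at -1.82 at 25 °C. ROT2, a glucosidase that trims glycans, was at -1.96 and PMT7, a further PMT gene, at -1.84 at 42 °C. At the upper end stood SED5, a Golgi SNARE, at 2.00 and 2.51, JEM1, an ER J-domain protein, at 2.21 at 25 °C, and SPC2, a small subunit of signal peptidase, at 1.84 at 42 °C. JEM1 has a coding length of 1938 bp, so the list also held a long gene that was high with Npl3.

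In Mex67 over the control at 25 °C, 0 of these 72 reached 2-fold, beside 0.746% higher and 0.657% lower of all genes tested. At 42 °C, 1 was higher and 9 lower, 1.39% and 12.5% beside 6.97% and 5.79%. SEC20, a SNARE of return traffic to the ER, was at 1.72, and GET4, of the route for tail-anchored proteins, at -1.51 and MNS1, an ER mannosidase, at -1.45. Mex67 over Npl3 gave 10 higher and 5 lower at 25 °C, 13.9% and 6.94% beside 12.1% and 15.2% of all genes tested. At 42 °C it gave 16 higher and 16 lower, 22.2% each beside 22.5% and 20.2%, so that these shares were near those of all genes. ERV46, a cargo receptor, at 1.72 and ALG3, a glycan mannosyltransferase, at 1.37 led at 25 °C, and SED4, related to SEC12, at 2.29 and MPD1, a disulfide isomerase homologue, at 1.71 at 42 °C. The lowest were JEM1 at -1.88 and SED5 at -1.72 at 25 °C, and SPC2 at -2.57 and SBH2, the paralogue of SBH1, at -2.53 at 42 °C.

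With heat, 1 of the 72 was at least 2-fold higher in the control, SIL1, an exchange factor of Kar2, at 1.00, and 1 with Npl3, the ER Hsp70 gene KAR2, at 1.22. That is 1.39% of the list each time, beside 6.69% of all genes tested in the control and 2.11% with Npl3. In both, 0 of 72 were at least 2-fold lower, beside 2.07% and 1.38%. With Mex67, 4 were higher and 13 lower, 5.56% and 18.1% beside 15.4% and 12.2% of all genes tested. ERO1, the oxidase that drives disulfide formation, was at 1.89 and SIL1 at 1.32, and SEC11, the catalytic subunit of signal peptidase, at -2.08 and GET4 at -2.07. Over the control's heat, ERO1 was at 1.22, SND2 at -1.52 and SEC11 at -1.44 with Mex67, with 1 of 72 higher and 7 lower (1.39% and 9.72%, beside 5.06% and 5.40%). With Npl3 0 of 72 reached 2-fold, beside 1.13% higher and 4.3% lower of all genes tested.

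The mRNAs of the precipitated proteins were read for orientation. MEX67 was at 11.30 and 11.83 in its own precipitate at 25 °C and 42 °C and at 11.65 and 11.47 in the controls, and NPL3 at 14.98 and 15.03 in its own and at 13.98 and 14.19 in the controls.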

How the data were processed

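The authors deposited 1 table of log2 values for 6 arrays (1 per group), with a row for each probe set. The R package affy is named in the submitters' processing notes. Its settings for background, normalization and summary were not given in the sources used here. Both a 3' labelling kit and a whole-transcript labelling manual are named in the labels, so what a 3' to 5' difference means depends on which was used. Of 10928 probe sets, 5716 are for S. cerevisiae, 4999 for S. pombe and 213 are controls. Where a locus had several probe sets their mean was taken, giving 5667 loci, of which 5646 were named and given a length by locus tag from the RefSeq gene table (assembly R64, strain S288C). Since 97.0% of these lengths divide by 3, they are called coding length here. OST5, at 410 bp, is the exception among the members. Its length does not divide by 3 and so is not a plain coding length, and the trend value taken for OST5 is uncertain. The number of arrays limits the precision.

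Comparisons subtract log2 values of 2 arrays, or subtract 2 such differences. The length trend is a lowess curve (fraction 0.3) on log10 length over all loci, computed in Python 3.11.15 with statsmodels 0.14.6. A check on simulated data used a straight trend and left out the shortest and longest loci when the error of the curve was read. It therefore does not cover a bend at the ends, where OST4 and SEC16 lie. All 42 members may be named; of the 72 other pathway genes, the 2 highest and 2 lowest at least 2-fold different in each comparison were named. The members, lists and comparisons were chosen with earlier results of these data known, and the search of gene descriptions was added after the values were seen. A planned hydropathy score was not run, because protein sequences were not used here. The closing part gives the alternatives: 2 other floors, 2 centrings, removal of the trends with level and with length, the brightest probe set, and a 1.5-fold threshold.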

Additional observations from a re-analysis of the deposited data

Results flagged for a closer look

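A few genes lay on opposite sides of 0 in the same contrast and at least 2-fold apart. With 1 array per group, none of these differences was tested. Mex67 over the control was at -0.76 at 42 °C and 0.34 at 25 °C for SRP14, and at -0.65 and 0.38 for OST5. For SEC31 it was at 0.99 and -0.19, and heat was at 0.92 with Mex67 but -0.26 in the control. Heat for OST6 was at -0.99 with Mex67 and 0.12 with Npl3. All 5 involve the Mex67 array at 42 °C, where the labelling spikes were at 4.63, the lowest of the 6 arrays; their part in these values was not tested.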

How the results depend on the processing

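The members' medians moved by less than the spread of S. pombe probe sets (0.22 to 0.32, SD) in all 11 comparisons under both centrings, removal of the trend with level, removal of the trend with coding length and the brightest probe set. Counts of members at least 2-fold different moved by over 1.5 times only when the length trend was removed or with a 1.5-fold threshold. Without the length trend, the count was 12 in place of 20 for Npl3 over the control at 25 °C (1 higher, which is none of the 5 called before, and 11 lower, of which 8 of the 15 called before), 6 in place of 19 for Mex67 over Npl3 at 42 °C, 1 in place of 3 (PMT4, none of the 3 called before) for heat with Mex67 over the control's heat, and 1 in place of 0 for heat with Npl3 over the control's heat. At 1.5-fold it was 27 for Npl3 over the control at 42 °C, 4 and 14 for Mex67 over the control at 25 °C and 42 °C, 23 for Mex67 over Npl3 at 25 °C, 5, 23 and 2 for heat in the control, with Mex67 and with Npl3, and 13 and 4 for heat with Mex67 and with Npl3 over the control's heat; a lower threshold counts more genes by construction. OST2 in Mex67 over Npl3 at 42 °C, at -1.04, was at 0.15 without the length trend, because the trend at its coding length was -1.19. What underlies the trend was not tested. No paired analysis was possible because each group holds 1 array, and for the same reason no array could be left out.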
